A study of Macaca fascicularis with 12 samples.

Results

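The 8 iliac arteries whose samples were labelled as medium or large atherosclerotic plaque, of 12 arteries in the series, were taken as established plaques, and expression was followed across them along the measured plaque area. The area ran from 0.30 to 1.003 mm2 and was treated as a continuous variable, so the medium (n = 5) and large (n = 3) labels did not enter the main tests of the gradient. Slopes given below as within the labelled groups come from an alternative fit that holds the label as a term. All 12 animals were untreated female cynomolgus monkeys (Macaca fascicularis) older than 20 years. All had eaten a high fat diet for 8 years and had been without ovaries for 4 years, so the gradient was read in animals that share a surgical menopause and a long atherogenic diet. Each animal gave 1 biopsy of the left iliac artery, and each artery was hybridized to 1 CodeLink array of human probes. The 4 arteries labelled small, with labelled plaque sizes of 0.041 and 0.113 mm2 in one pair and none in the other, were left out of the gradient and serve only as a reference level. The biopsies are whole artery tissue and not dissected plaque. In such bulk tissue, fewer cells of a type and less RNA per cell cannot be told apart.

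An atherosclerotic plaque grows as lipoproteins are held in the inner wall of the artery, monocytes enter and become lipid-laden macrophages, and smooth muscle cells move in, divide and lay down matrix. As the lesion enlarges, dying foam cells and matrix can form a lipid core under a fibrous cap. Lysosomal enzymes of macrophages break down the engulfed lipoprotein, cathepsins also cleave matrix, and interferon-induced genes report on inflammatory signalling. Contractile smooth muscle cells, which carry ACTA2 and MYH11, make up most of the muscular wall of a healthy iliac artery.

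In order of area the arteries were medium replicate 2 (0.30 mm2), medium 3 (0.391), medium 1 (0.448), medium 5 (0.516), medium 4 (0.542), large 2 (0.61), large 3 (0.873) and large 1 (1.003 mm2). Values printed as a series below follow this order. The areas were not evenly spread, with a mean of 0.585 and a median of 0.529 mm2, and large 3 and large 1 together held 63.9% of the sum of squares of area. Large 1 had a leverage of 0.558 on each fitted slope, large 3 of 0.331 and medium 2 of 0.327. The deposited values are intensities whose median on each array lies close to 1, and an intensity of 0.111 is the floor to which lower values were set. The arrays resembled each other closely, with correlations between 0.952 and 0.972 over the 53685 tested probes with a value on all 8 arrays. As a check of the labelled tissue, the smooth muscle genes ACTA2 (169 to 462) and MYH11 (287 to 492) were above the 99th percentile of intensity in all 8 arteries, which lay between 114 and 144.

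No gene was called for a change with plaque area among the 8 arteries. Of 53877 probes tested by limma's slope fit, 0 passed an adjusted p of 0.05 (0%), and the lowest adjusted p was 0.494. At an unadjusted p under 0.05, 1709 probes (3.17%) had a positive slope and 1253 (2.33%) a negative one, 5.50% in all. By rank correlation with exact permutation p-values, 0 of 53685 probes passed (0%), and 2133 had an unadjusted p under 0.05. The smallest p that the 40320 orders of 8 areas allow is 4.96e-05, and the lowest adjusted p was 1. The precision was set by the number of arteries. For probes at or above the array median in brightness, the median standard error (SE) of a slope was 0.411 log2 units per mm2, and the 95% interval of the change over the full span of 0.703 mm2 reached a median of 0.656 log2 units to either side. At this median width a smaller change could not be told from 0, while probes of smaller spread had narrower intervals. The interval is for 1 probe without adjustment, so larger gradients could also miss the adjusted test. The changes over the span of LSP1 (1.38 log2 units) and RAB7B (2.89), for instance, were not called. The genes below are therefore described by their values, as the steepest and most ordered among many, and none is a called change.

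LSP1, a leukocyte actin-binding protein, and FURIN, a proprotein convertase, gave the most orderly positive gradients among bright probes of small p. LSP1 read 10.4, 10.8, 16.7, 14.8, 14.8, 19.7, 24.8 and 26.7, and each of the 3 largest areas lay above every smaller one. Its slope was 1.96 ± 0.36 (SE) log2 units per mm2, with a rank correlation (rho) of 0.929 and an adjusted p of 0.609. The 4 small arteries read 3.63 to 8.62, below all 8 established ones, and LSP1 was also higher in established than in small arteries by 1.74 ± 0.22 log2 units (limma, adjusted p 0.0013). FURIN read 10.5, 14.7, 14.1, 15.6, 17.7, 18.8, 22.6 and 21.9, with a slope of 1.39 ± 0.34 and a rho of 0.952. Here the small arteries (11.1 to 17.5) overlapped the smaller established plaques, and the step from small to established was 0.36 ± 0.16 (adjusted p 0.24). Both slopes kept their sign without the 2 largest areas, with values of 2.81 ± 1.02 for LSP1 and 2.52 ± 0.88 for FURIN. The other 6 arteries were also among those that chose the genes.

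GPX4, the selenium enzyme that reduces lipid hydroperoxides and thereby protects membranes, had the steepest slope of any named gene, 10.19 ± 1.31. Its readings were low in 6 arteries and high in 2. It read 0.363, 0.589, 0.427, 0.469, 0.320 and 1.01 in the first 6 arteries and then 15.0 in large 3 and 32.5 in large 1. The small arteries read 0.218 to 0.658, so all arteries up to 0.542 mm2 lay below the array median of about 1, close to the small arteries. Without the 2 largest areas the slope was 2.48, and rho over all 8 was 0.690 with an exact permutation p of 0.069. GPX4 had 1 probe, so no second probe was there to compare.

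The other leading positive genes split into those that stepped up first from small to established plaques and those that did not. RAB7B, a small GTPase of late endosomes and lysosomes, read 1.82, 1.55, 7.46, 2.73, 2.83, 3.92, 10.4 and 13.5, a slope of 4.11 ± 0.91. Medium 1 stood out of order, and the small arteries (0.704 to 1.28) were lower than all 8. AGTRAP, which binds the angiotensin II receptor, stayed between 2.30 and 3.56 in the medium arteries and reached 4.55, 6.59 and 7.29 in the large ones, against 0.729 to 2.04 in the small. Its slope was 2.17 ± 0.53. Both genes were higher in established than in small arteries, RAB7B by 2.12 and AGTRAP by 1.84 log2 units (adjusted p 0.0054 and 0.0035). A second RAB7B probe, dimmer, had a slope of 1.25 ± 0.95.

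SMARCC1, a subunit of the SWI/SNF chromatin remodelling complex, read 5.43 to 6.57 in the medium arteries and 7.95, 9.30 and 10.5 in the large ones (slope 1.35 ± 0.32). MAP3K3, a kinase that feeds MAP kinase cascades, read 1.16 to 1.54 and then 1.68, 2.03 and 2.72 (1.58 ± 0.38). PDE2A, a phosphodiesterase of cyclic nucleotides, read 1.39 to 2.08 in the first 6 arteries and 2.47 and 3.01 in the last ones (1.39 ± 0.32, rho 0.905). STAR, which carries cholesterol into mitochondria for steroid synthesis, read 1.21 to 1.42 and then 2.18 and 3.18 (1.86 ± 0.42). In STAR the 2 largest areas carried the slope, which was -0.09 without them, and its other probes had slopes of 0.29 and -0.10. MDGA2, a cell-surface protein of the immunoglobulin family, had a slope of 1.25 ± 0.31 and a rho of 0.905. A second, brighter MDGA2 probe had a slope of 0.36 ± 0.69 and a called step of 1.47 (adjusted p 0.0087). None of the probes that chose MAP3K3, STAR, SMARCC1, PDE2A and MDGA2 passed the test of the step.

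Other bright genes were named for their rank correlation with area. DEF6, a signalling protein of lymphocytes, had a rho of 0.952, with 12.7 to 15.8 in 7 arteries and 23.7 in large 3. FAM174C had a rho of 0.929 and a slope of 0.98 ± 0.29.

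**Figure D1:**
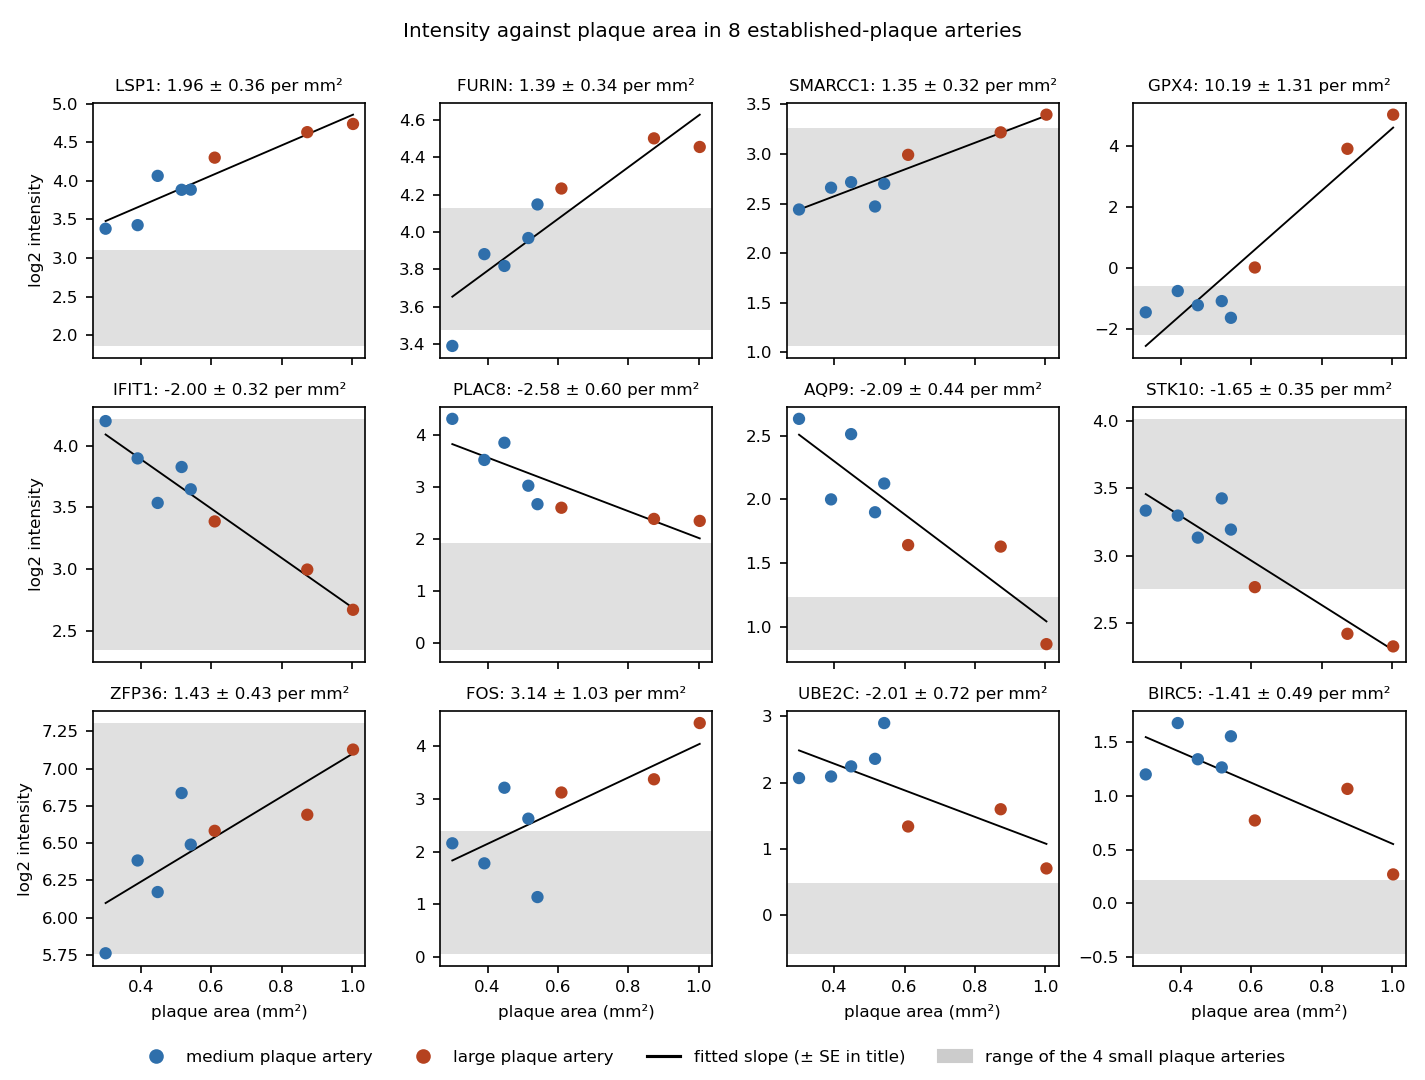
Log2 intensity (vertical axis) against plaque area in mm2 (horizontal axis) for 12 genes in the 5 medium (blue) and 3 large (red) plaque arteries, 1 point per artery, with the limma slope as a line and the range of the 4 small plaque arteries as a grey band. LSP1 runs from 10.4 to 26.7 in intensity above its grey band, IFIT1 from 18.4 down to 6.36 inside it, and GPX4 stays low in 6 arteries and reaches 15.0 and 32.5 at the 2 largest areas.

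The smallest p among bright probes with a negative slope belonged to IFIT1. This gene, for an RNA-binding protein induced by interferon, read 18.4, 14.9, 11.6, 14.2, 12.5, 10.5, 7.98 and 6.36. The 3 large arteries were the lowest of the 8, and the slope was -2.00 ± 0.32 with a rho of -0.929 and an adjusted p of 0.504. The small arteries read 5.07 to 18.6, a range that covers all 8 arteries, and the step from small to established was 0.12 ± 0.31. Without the 2 largest areas the slope of IFIT1 was -2.21 ± 0.97. The other 6 arteries were also among those that chose the gene, so this is not independent support. HERC6, also interferon-inducible, read 3.88 to 5.77 in the medium arteries and 3.30, 2.57 and 1.5 in the large ones (slope -2.21 ± 0.55), but a second, dimmer probe of the gene had a slope of 0.32 ± 0.57.

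PLAC8, a small cysteine-rich protein of leukocytes, had the closest negative ordering among the bright named genes, with a rho of -0.976. It read 19.9, 11.5, 14.5, 8.16, 6.38, 6.08, 5.24 and 5.10, a slope of -2.58 ± 0.60. All 8 arteries nevertheless exceeded the small ones (0.910 to 3.82), and PLAC8 was higher in established plaques by 2.46 ± 0.36 (adjusted p 0.0035). AQP9, a channel for water and glycerol, showed the same pair of directions, with 6.21, 4.00, 5.71, 3.73, 4.36, 3.12, 3.09 and 1.82 against 1.76 to 2.35 in the small arteries. Its slope was -2.09 ± 0.44 and its step 0.90 ± 0.17 (adjusted p 0.013), a step that did not pass with the replicate number as a block or with 2 means and no slope in the fit. In both genes the smallest established plaques were farthest from the small arteries.

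STK10, a kinase of lymphocytes, read 8.78 to 10.7 in the medium arteries and 6.81, 5.36 and 5.02 in the large ones, a slope of -1.65 ± 0.35. TFDP1, the partner of E2F transcription factors at cell cycle genes, read 7.75 to 10.5 and then 6.73, 5.65 and 5.20 (-1.45 ± 0.36). PDE8B, a phosphodiesterase of cyclic AMP, went from 2.50 to 1.37 with a rho of -0.952 and a slope of -1.25 ± 0.29. GATA2, a transcription factor of blood progenitors, mast cells and endothelium, read 32.2 in medium 2 and 8.14 in large 1 (-2.21 ± 0.55), while its other probes, both dimmer, had slopes of 0.66 ± 0.66 and 1.44 ± 0.83. AK4, a mitochondrial adenylate kinase, had a slope of -2.14 ± 0.55 with the probe that chose it, but its brightest probe had one of -0.22 ± 0.62, with a called step of -1.20 (adjusted p 0.012). DDT, a relative of the cytokine MIF, had a slope of -2.37 ± 0.70 with a rho of -0.929. DDI1 (-1.77 ± 0.42) and ZNF592 (-0.76 ± 0.29) completed the leading negative genes.

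The gradient was next set beside the step between small and established plaques, estimated in 1 fit over 12 arteries as the difference of the 8 at their mean area from the 4 small ones. The step was called (limma, adjusted p under 0.05) for 1355 probes that were higher in established plaques (2.51%) and 878 that were lower (1.63%). The count depended on single arteries, with 1087 probes called without small replicate 2 and 1424 without large replicate 3 instead of 2233. Probes called higher had a median step of 1.45 log2 units and a median change of 0.22 over the whole span of area within the 8 arteries. Of them 949 (70.0%) had a positive slope, against 49.1% of all tested probes, but the step and the slope were estimated from overlapping arteries. For 864 (63.8%) the 95% interval of the change over the span lay wholly below the step, leaving the error of the step itself aside. For 490 the interval held the step. The share below was 5.36% over all tested probes, but probes called for the step were chosen for a large one. That choice raises the share, so no conclusion is drawn from it. Probes called lower had a median step of -0.99 and a median change over the span of -0.16. For 438 of them (49.9%) the interval lay wholly above the step, against 7.52% of all probes, and for 440 it held the step. Among the probes called higher, 104 (7.68%) had a positive slope and 32 (2.36%) a negative one at an unadjusted p under 0.05. Over all probes these shares were 3.17% and 2.33%. Among the probes called lower, 30 (3.42%) had a positive and 36 (4.10%) a negative one, and 284 (32.3%) had a positive slope at any p. Both sets thus leaned in the direction of their step, with the same limit of overlapping arteries.

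For the genes with the largest upward steps no slope was called, though their intervals were wide. GDF15, a stress-induced cytokine of the TGF-beta family, read 9.59, 22.9, 20.8, 12.8, 26.3, 13.3, 26 and 14.6 against 0.164 to 0.678 in the small arteries, a step of 5.47 ± 0.38 (adjusted p 6.2e-05). Its slope within the 8 was 0.47 ± 0.79, and its change over the span had a 95% interval from -0.93 to 1.60. ADAMDEC1, a metalloprotease-like protein of macrophages, stepped up by 4.86 ± 0.61 and then varied without order from 4.69 in medium 5 to 87.5 in medium 1 (slope 0.17 ± 1.77). LAPTM5, which sits in the lysosomal membrane of leukocytes, rose by 4.88 ± 0.46 from small to established plaques, and within the 8 read 3.12 in large 2 and 15.7 in large 1 (slope 1.38 ± 0.86). MLPH, an adaptor that links vesicles to myosin, rose by 4.96 ± 0.32, and CRABP2, a carrier of retinoic acid, by 4.66 ± 0.51, with slopes of 1.26 ± 0.81 and 2.22 ± 1.53. Within the labelled groups the slopes were larger, at 3.97 ± 1.08 for MLPH, 3.98 ± 1.27 for LAPTM5 and 6.13 ± 2.49 for CRABP2. A second, dimmer MLPH probe had a step of 0.06 (limma, adjusted p 0.83) and a slope of -0.20 ± 0.28. MATK, a kinase of blood cells, rose by 5.29 ± 0.43 and had a slope of 2.22 ± 0.91, from 3.16 to 14.5, with an unadjusted p of 0.039.

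Nor was a slope called for the genes with the largest downward steps. IGSF10 read 8.31 to 14.2 in the small arteries and 0.764, 0.862, 0.6, 0.673, 0.654, 1.05, 0.498 and 2.62 in the established ones, a step of -3.62 ± 0.33 and a slope of 1.52 ± 0.95. EDN3, an endothelin peptide, stood at 0.425 to 1.36 in all 8, with a step of -2.72 ± 0.37 and a slope of 0.24 ± 0.81. IGSF21, CLDN11, a tight junction protein, and CRYM, which binds thyroid hormone, fell by 3.18, 2.56 and 2.36 log2 units across the step, with slopes of -0.46 ± 1.45, -1.42 ± 1.47 and -2.01 ± 1.33. A second, dimmer CLDN11 probe had a step of -0.14 (limma, adjusted p 0.71) and a slope of -0.30 ± 0.30. CRYM read 19.4 in medium 2 and 2.78 in medium 1, and its slope within the labelled groups was -6.21 ± 1.90. COPG2IT1 was lower across the step by -2.67 ± 0.62, and its slope was 0.26 ± 1.81, but -5.74 ± 2.45 within the labelled groups. The steps of CLDN11 and COPG2IT1 did not pass under 6 and 12 of 26 other settings. The estrogen receptor ESR1 and the progesterone receptor PGR were lower in established plaques by -1.20 ± 0.26 and -1.55 ± 0.32. They had slopes of 0.03 ± 0.71 and -0.16 ± 0.93, with PGR highest in large 2 (41.6) among 10.8 to 22.0 in the other arteries. The slopes within the labelled groups were -1.66 ± 1.19 for ESR1 and -3.86 ± 0.91 for PGR. Their steps did not pass under 6 and 5 of 26 other settings, quantile normalization among them for ESR1 and the replicate block for PGR.

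**Figure D2:**
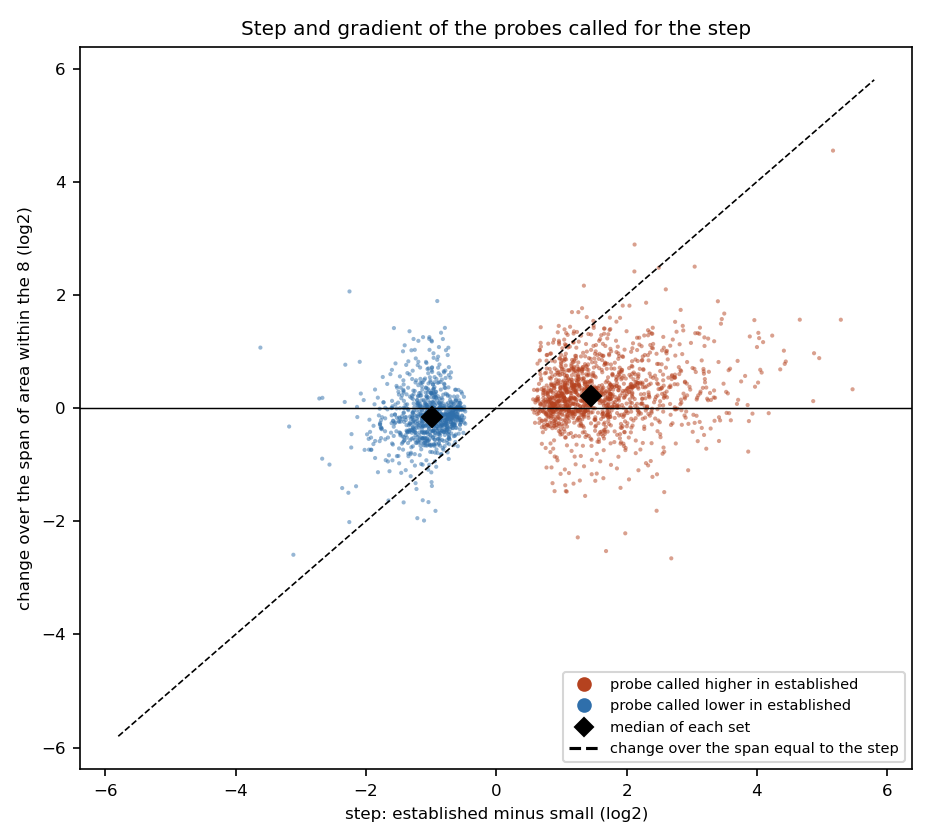
Each point is 1 of the 2233 probes called for the step: the horizontal axis gives the log2 difference of established from small plaques and the vertical axis the log2 change over the 0.703 mm2 span within the 8 established arteries. The median changes over the span (black diamonds) were 0.22 for probes called higher and -0.16 for those called lower. Each has the sign of its step and falls short of the dashed line of equal change.

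The gene lists were read against the share of all probes with a slope of unadjusted p under 0.05, 3.17% positive and 2.33% negative. With 1 probe per named gene those shares were 3.09% and 2.19%, and 48.5% of genes had a positive slope. Of these 18110 genes the step was called higher for 866 and lower for 370. No member of any of the 36 lists passed the adjusted test of the slope, so the counts below are of unadjusted p-values.

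The immediate early list departed most from these shares. It holds transcription factors and feedback regulators that cells induce within minutes of a stimulus, including the handling of tissue. Of 18 measured members 15 had a positive slope and 9 had one with an unadjusted p under 0.05, none negative, and the median slope was 0.80 log2 units per mm2 against -0.02 over all named genes. FOS, a component of the AP-1 transcription factor, read 4.46, 3.43, 9.24, 6.16, 2.20, 8.68, 10.3 and 21.6 (slope 3.14 ± 1.03). ZFP36, which destabilizes cytokine messenger RNA, read 54.2, 83.5, 72.1, 114, 89.8, 95.8, 103 and 140 (1.43 ± 0.43). JUN, the partner of FOS, read 0.126 to 0.481 in the first 6 arteries and 0.719 and 1.09 in the last (2.55 ± 1.00, and -0.34 without these 2), and DUSP1, a phosphatase of MAP kinases, read 5.28 to 21.4 in 7 arteries and 29.8 in large 1 (2.22 ± 0.90).

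The remaining 5 of the 9, singled out after their values were seen, were KLF2 (3.54 ± 1.16) and KLF4 (1.68 ± 0.68), factors induced in vessels by flow, the stress factor ATF3 (2.05 ± 0.80), IER2 (1.39 ± 0.47) and EGR3 (0.78 ± 0.31). In 7 of the 9, large 1 had the highest reading. The count rested on that artery: without large replicate 1, 0 of 18 members had an unadjusted p under 0.05, although the median slope was still 0.69. Without large 3 and without medium 2 the counts were 7 and 4. Not all members went this way. EGR1 (0.54 ± 0.36), JUNB (0.32 ± 0.34) and FOSB (0.22 ± 0.40) had slopes near their SE, and NR4A2 (-0.55 ± 0.39) and FOSL1 (-0.55 ± 0.32) had negative ones. The step of the list was near zero, with a median of 0.02. The time from surgery to preservation is not given in the sources used here, and its part in these values was not tested.

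The proliferation list leaned the other way. Of 21 members 18 had a negative slope, 3 of them with an unadjusted p under 0.05 (14.3%), and the median slope was -0.56. UBE2C, a ubiquitin-conjugating enzyme of mitosis, read 4.19, 4.26, 4.74, 5.13 and 7.45 in the medium arteries and 2.53, 3.03 and 1.63 in the large ones, without overlap (-2.01 ± 0.72). BIRC5, survivin, also separated, with 2.30 to 3.20 and then 1.71, 2.09 and 1.21 (-1.41 ± 0.49). CCNB1, the mitotic cyclin, was the third and was named after its values were seen (-1.66 ± 0.60). All 3 were higher in established than in small arteries, UBE2C by 1.91, CCNB1 by 1.46 and BIRC5 by 1.22 log2 units, as were 7 of the 21 members against 866 of 18110 named genes. MKI67, a standard marker of dividing cells, did not share the pattern, with a slope of -0.06 ± 0.31 and readings of 12 to 15.4. Within the medium arteries the UBE2C readings ran upward in order of area, and the median slope of the list within the 2 labelled groups was 0.08. Without large replicate 1, 0 members had a negative slope of unadjusted p under 0.05, with a median of -0.51.

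The interferon list had 12 of 16 negative slopes, with 2 of unadjusted p under 0.05 (12.5%) and a median of -0.34. Beside IFIT1 this was IFI44, which read 31.5, 14.2, 27.2, 14.7, 13.6, 11, 13.4 and 11.5 (-1.54 ± 0.66). Members with little or no slope included OAS2 (-0.01 ± 0.32), MX2 (-0.12 ± 0.31) and OAS3 (0.07 ± 0.61), all antiviral effectors. The adaptor PYCARD, of the inflammasome list, was also ordered (rho -0.929, slope -1.87 ± 0.37), but its readings of 0.111 to 0.324 lay near the floor.

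**Figure D3:**
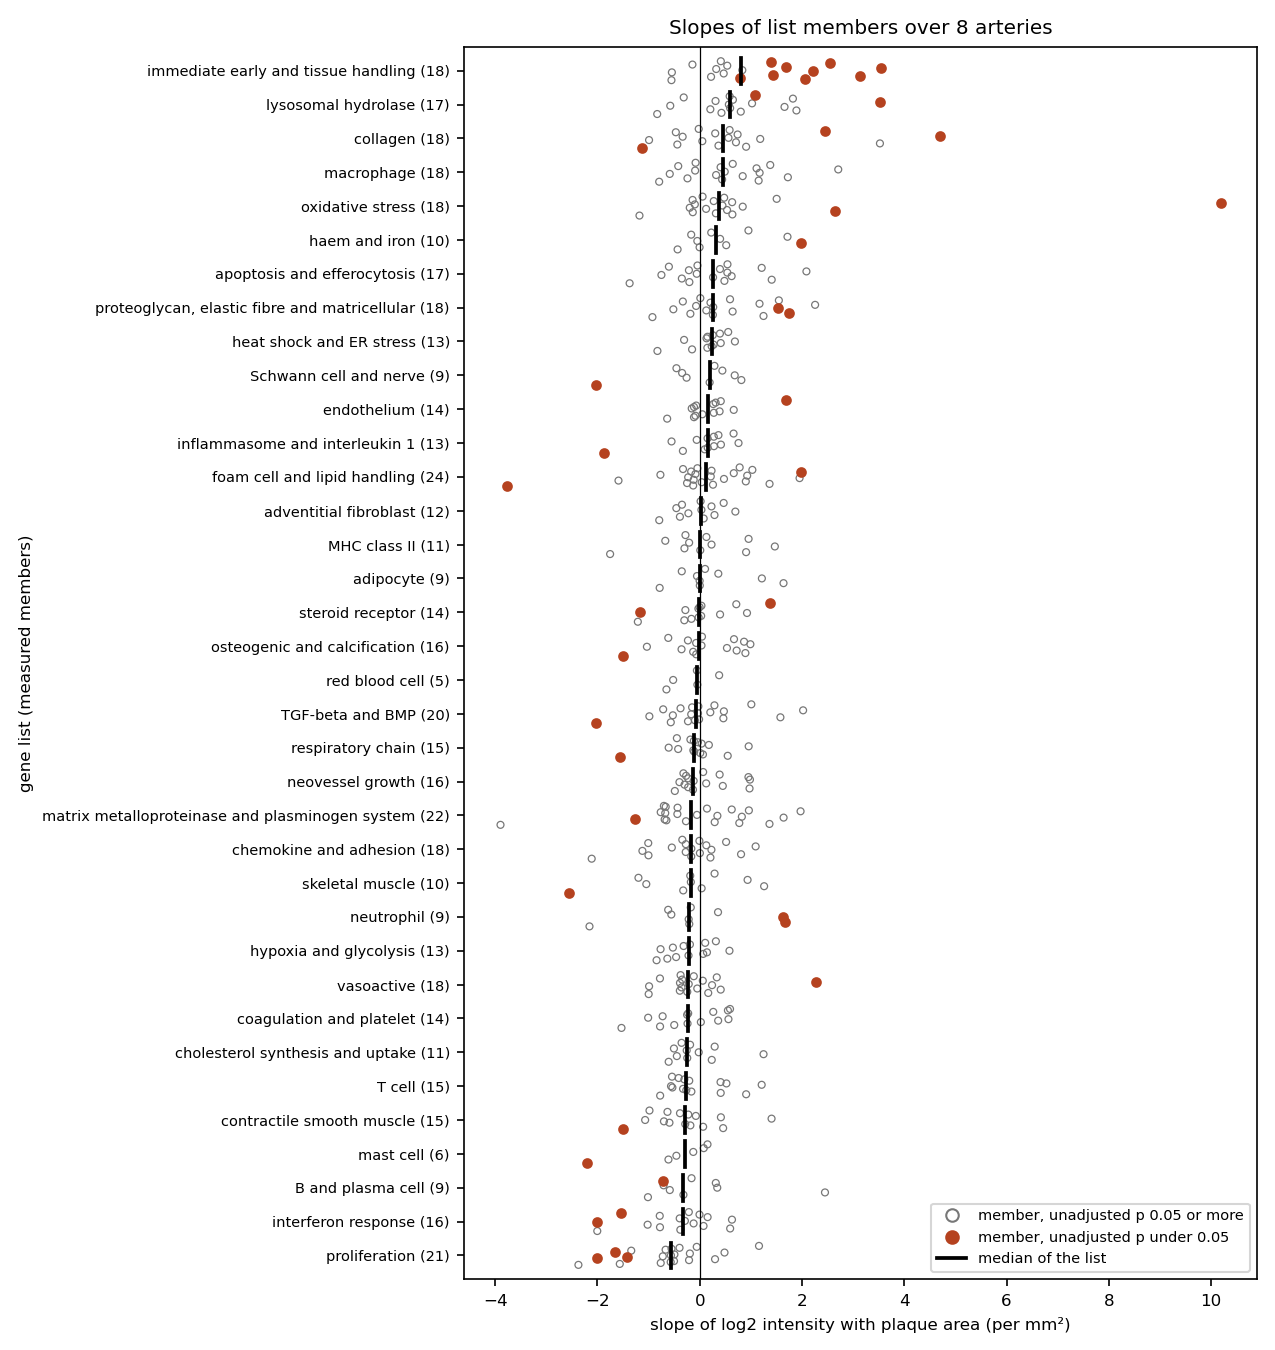
Slope with plaque area, in log2 units per mm2 (horizontal axis), for each measured member of 36 gene lists (vertical axis, ordered by median, with the number of measured members), filled red where the unadjusted p was under 0.05, with the list median as a black bar. The immediate early list, at the top, has 9 of 18 members in red to the right, and the proliferation list, at the bottom, has 3 of 21 in red to the left.

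Most macrophage markers and lysosomal hydrolases rose across the step, and no member of either list was called along the area. Of 18 measured macrophage markers 12 were higher in established than in small arteries, against 866 of 18110 named genes, with a median step of 2.64. In either direction 0 of the markers had a slope of unadjusted p under 0.05. Their slopes ran from -0.79 to 2.71 with a median of 0.46. Within the labelled groups the median was 1.76, against 0.08 over all named genes, and 4 members had a positive slope of unadjusted p under 0.05. The share of all probes with such a p in that fit is not given here, so no conclusion is drawn from the count. LYZ, lysozyme, read 66.6, 54.9, 248, 78.2, 76.9, 99, 133 and 130, a slope of 1.17 ± 0.94, with medium 1 far above the rest. CD163, the haemoglobin scavenger receptor, read 11.5 to 28.2 (-0.09 ± 0.66). CD68, a lysosomal glycoprotein of macrophages, had no called step with its brightest probe, since the small arteries (44.1 to 60.4) lay inside the range of 13.5 to 89.1. Of 17 lysosomal hydrolases and membrane proteins 14 had a positive slope and 2 had one with an unadjusted p under 0.05 (11.8%), with a median of 0.59. These were CTSD, the aspartic cathepsin, which read 6.33, 6.46, 22.9, 3.23, 4.74, 14.3, 33.7 and 26.9 (3.53 ± 1.37), and SMPD1, acid sphingomyelinase, at 0.334 to 0.582 (1.08 ± 0.34). CTSS read 10.8 to 53.5 with its peak in medium 1 (1.82 ± 1.11). The median slope of the list was -0.21 without the 2 largest areas and 1.14 within the labelled groups.

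The cell type lists placed the arteries in an order that area did not give. The mean of the smooth muscle markers, each centred on its own mean over the 8 arteries, was 0.55, 0.29, -0.45, -0.24, -0.69, 0.64, -0.16 and 0.05 log2 units. The macrophage markers gave -0.27, -0.37, 0.56, -0.15, 0.18, -0.41, 0.26 and 0.21. Large 2, at 0.61 mm2, thus had the highest smooth muscle and the lowest macrophage level. Medium 1 had the highest macrophage and the second lowest smooth muscle level, and medium 4 the lowest smooth muscle level. Summed intensities ran from 1078 in medium 4 to 2492 in large 2 for the 15 smooth muscle markers and from 367 in medium 2 to 751 in medium 1 for the 18 macrophage markers. The slopes of the smooth muscle markers had a median of -0.28 over the 8 arteries, but -1.64 without the 2 largest areas and -2.90 within the labelled groups. ACTA2 (-0.70 ± 0.80), MYH11 (0.41 ± 0.43) and SMTN (1.40 ± 1.47) had slopes within about their SE over the 8 arteries. Their slopes within the labelled groups were -2.46 ± 1.38, -0.43 ± 0.75 and -4.01 ± 1.71. In that setting 7 of the 15 members had a negative slope of unadjusted p under 0.05, against 1 over the 8 arteries. The share of all probes with such a p in that setting is not given here, so no conclusion is drawn from the count. The median slope over all named genes was 0.08 there. Of the other cell types, T cell markers had 5 of 15 positive slopes (median -0.26), endothelial markers 8 of 14 (0.16) and adventitial fibroblast markers 7 of 12 (0.02). The fibroblast markers were highest in large 1, with a summed intensity of 792, and lowest in medium 4, with 276. PECAM1 of the endothelium stayed at 19.8 to 28.4.

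**Figure D4:**
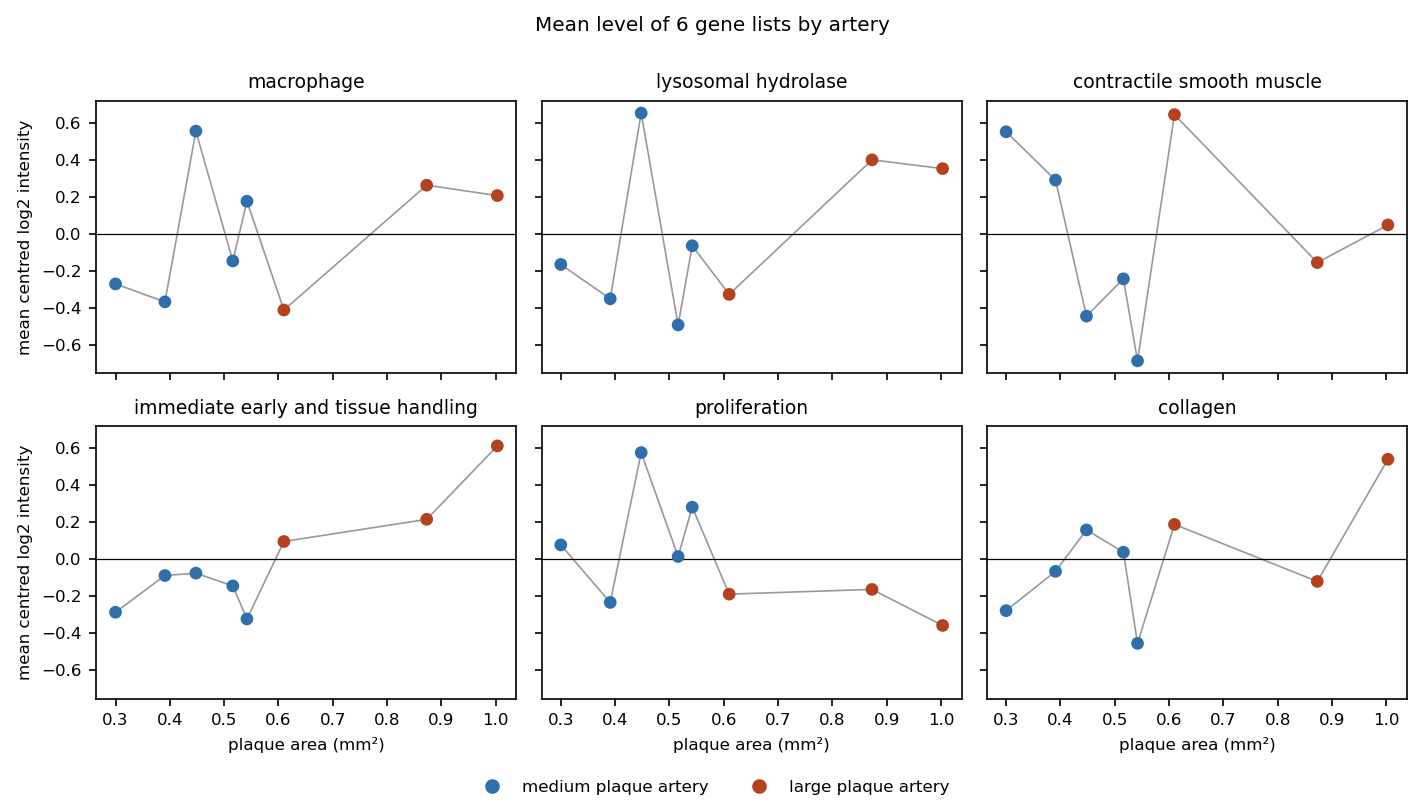
Mean log2 intensity of the measured members of 6 lists, each member centred on its mean over the 8 arteries (vertical axis), against plaque area in mm2 (horizontal axis), 1 point per artery, medium in blue and large in red, joined in order of area. Large 2 lies at 0.64 for smooth muscle and -0.41 for macrophage markers, and medium 1 at -0.45 and 0.56, whereas the immediate early list ends at its highest value, 0.61, in large 1.

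Matrix genes varied from member to member. Of 18 collagens 12 had a positive slope, with a median of 0.46, 2 positive and 1 negative at an unadjusted p under 0.05. COL6A2, a chain of microfibrillar collagen, read 0.367 to 1.24 in the first 6 arteries and 1.51 and 1.91 in the last (2.45 ± 0.88). COL4A2, of basement membranes, had a slope of 4.70 ± 1.60 that was raised by a reading of 1.11 in medium 2 against 11.6 to 42.1 in the other established arteries. The slope was 2.33 without medium 2, and a second, dimmer probe had -0.40 ± 0.33. Among the small arteries the lowest reading of the first probe was 0.234, against a median of 24.6. The negative one was COL3A1, a fibrillar collagen named after its values were seen, at 105 in medium 2 and 55.3 in large 1 (-1.13 ± 0.41), while COL1A1 had a slope of 0.37 ± 0.46. Of 18 proteoglycan and elastic fibre genes 13 had a positive slope, with a median of 0.26. BGN, the small proteoglycan biglycan, read 0.362 to 0.532 in the medium arteries and 0.725, 0.737 and 0.847 in the large ones (1.54 ± 0.46), and ELN, elastin, read 2.01 to 4.48 in the first 6 arteries and 4.92 and 7.23 in the last (1.74 ± 0.62). The slope of ELN was -0.15 without the 2 largest areas, and its second probe had one of 0.23 ± 0.73. TIMP1, an inhibitor of matrix metalloproteinases, read 222 to 396 in the first 6 arteries and 187 and 197 in the last (-1.26 ± 0.47), and MMP9, a gelatinase, read 3.71 to 5.82 (0.62 ± 0.37).

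Lipid handling genes gave no common direction. Of 24 foam cell members 13 were higher across the step, against 866 of 18110 named genes, and 13 had a positive slope within the 8, with a median of 0.13. GPNMB, a glycoprotein of lipid-laden macrophages, read 0.896 to 3.05 in the first 6 arteries, with the peak in medium 1, and 3.13 and 3.03 in the last (1.99 ± 0.82). SPP1, osteopontin, went the other way, with 2.43, 0.439, 4.91, 2.14, 1.74, 1.21, 0.942 and 0.210, a slope of -3.78 ± 1.62 that was -0.30 without the 2 largest areas. In the oxidative stress list 13 of 18 members had a positive slope (median 0.38). Beside GPX4 the other of unadjusted p under 0.05 was CYBA, a membrane subunit of NADPH oxidase, at 1.32 to 3.63 in the medium arteries and 4.32, 7.96 and 4.09 in the large ones (2.65 ± 0.96), with a slope of -0.04 within the labelled groups. Of 11 MHC class II genes 5 were higher across the step, against 866 of 18110 named genes. Their list had a median slope of 0.01, and HLA-DQA1 (-1.75 ± 1.39) and HLA-DQB1 (1.47 ± 1.03) pointed in opposite directions.

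Chemokine, coagulation, hypoxia, neovessel and T cell lists had 0 members with a slope of unadjusted p under 0.05. CCL2, the monocyte chemoattractant, was higher across the step by 1.99 ± 0.25 and read 5.33 to 9.43 in the medium and 3.43 to 5.38 in the large arteries (slope -1.0 ± 0.68). VCAM1, an adhesion receptor for leukocytes, read 2.17 to 3.70 (-0.55 ± 0.42). The receptor of TWEAK, TNFRSF12A, read 4.14 to 10.3 in the medium arteries and 24.4, 18.7 and 16.9 in the large ones (2.65 ± 1.11), and its second probe had a slope of 3.13 ± 1.37. CRIP2, a LIM-domain protein of the vessel wall, also separated, with 0.962 to 2.16 and then 5.44, 8.35 and 4.85 (3.53 ± 1.19). Within the labelled groups both slopes were negative, -1.65 for TNFRSF12A and -1.08 for CRIP2.

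Across the arrays as a whole, no main axis of variation correlated with plaque area after adjustment. The leading principal component, with 25.4% of the variance, correlated with area at r = -0.31 (exact permutation p = 0.45) and rho = -0.38. The third held 14.1% and had r = -0.79 and rho = -0.71, with exact permutation p-values of 0.019 and 0.058, or 0.12 and 0.22 after adjustment over 8 measures; r was -0.21 without the 2 arteries farthest from the median area and fell in size to 0.23 without medium 1. The share of values at the floor, a measure of the array, was 6.46, 6.51, 6.29, 5.57, 5.59, 5.21, 5.32 and 5.43%, higher in the smaller plaques. Its rho with area was -0.857 (exact permutation p = 0.011, adjusted 0.086) and its r -0.757 (p = 0.031, adjusted 0.12), and its r was -0.93 without the same pair of arteries. Dim probes near the floor, such as PYCARD, JUN, BGN and SMPD1, are measured where this share moves with area, and its part in their slopes was not tested. LSP1, FURIN, IFIT1, PLAC8, AQP9, STK10, FOS and ZFP36 read above 1 in all 8 arteries.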

How the data were processed

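Per the labels' protocols, total RNA of each artery was amplified to biotinylated cRNA, hybridized to a CodeLink whole human array, stained with an Alexa dye, and imaged. The deposited values are linear intensity per probe, scaled by the authors so that each array's median is close to 1; some lie below 0, so background had been subtracted. How the images were read, the background removed and the scale set is not given in the sources used here. Human probes can bind monkey transcripts less well, so levels were compared between animals for 1 probe. The number of arrays limits precision.

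Intensities under the floor of 0.111, the 5th percentile of positive values, were set to it (5.80% of values) and log2 taken. Of 54359 probes, 53877 with values on at least 6 of the 8 arrays and not at the floor on all were tested; the fit dropped the missing values of 192 incomplete probes. The slope with area was fitted in R 4.3.3 by limma 3.58.1 (lmFit, eBayes, two-sided, Benjamini-Hochberg over all probes, threshold 0.05). Spearman's rho had an exact permutation p over 40320 orders. The step came from 1 limma fit over 12 arrays. Scripts were tested on simulated data. Gene symbols came from the platform annotation, which can be old: 23267 probes had 1 symbol, 900 several (none named) and 29710 none here. No DNA or protein sequence was used.

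The genes named were drawn from the 10 bright probes of smallest p in each direction, 5 each way by rho, the 6 largest steps each way, 2 members per list, and a fixed set. Not all of the genes so chosen are printed. Others are further list members named with their values known. Some are marked, and MKI67, EGR1, JUNB, FOSB, NR4A2, FOSL1, OAS2, MX2 and OAS3 are of this kind too. A gene is represented by its brightest complete probe or the probe that chose it. The part, the 36 lists (12 of cell types, 24 of pathways) and the named genes were chosen with earlier results of these data known. Replicate numbers were shared by the groups, and deviations of same-numbered medium and large arteries correlated at 0.133, 0.140 and 0.0781. Other medium arteries gave -0.0795 to 0.0459, -0.143 to 0.0391 and -0.182 to 0.218 with the same large arteries. The same number was thus the closest match for large 1 and large 2 but not for large 3, which does not settle a pairing. The main fits used no pairing, and the replicate number as a block is given as an alternative. Alternatives covered normalization, floor, dim and incomplete probes, variance model, scale of area, group term, single arteries and 1 added after seeing the data, an exact permutation of Pearson's r.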

Additional observations from a re-analysis of the deposited data

Results flagged for a closer look

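Each gene named in the text was looked at for an artery far from the others among the 5 medium ones, on the log2 scale. Of 88 genes 4 had one, where chance marks about 1 in 20 groups. COL4A2 read 1.11 in medium replicate 2 and 11.6 to 24.8 in the other medium arteries. MLPH read 25.8 in the same artery, which has the smallest area of the 8, and 57.9 to 77.5 in the others. LYZ read 248 in medium replicate 1 against 54.9 to 78.2, and CYBA read 3.63 there against 1.32 to 1.72. Medium replicate 1 also had the highest mean level of the macrophage and lysosomal hydrolase lists among the 8 arteries, 0.56 and 0.65 log2 units above the list mean.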

How the results depend on the processing

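No slope was called in any alternative over the 8 arteries or fewer, including quantile normalization, other floors, array weights, the log2 or rank of area and each artery left out (0 to 0). With all 12 arteries in the slope, which adds the step to the gradient, 314 probes were called. Exact permutation of Pearson's r, chosen after seeing the data, called 0 probes (2769 at an unadjusted p under 0.05; lowest adjusted p 0.947). With the replicate number as a block, 0 slopes and 1491 steps were called, against 0 and 2233 without it. The step count was 768 without the 2 largest areas, 4249 at an adjusted p of 0.1, 587 at 0.01, and 1087 to 2251 with 1 artery left out. The size of r of the third component ran from 0.227 to 0.927 with 1 artery left out, and r of the share at the floor was -0.466 with the floor at the 1st percentile. Of 123 named gene probes 66 kept the sign of their slope under every alternative. With the sign unchanged, 18 were called under one, in each case that of all 12 arteries. Probes whose sign turned there are not in this count. PLAC8 and AQP9 turned positive with all 12 arteries. Of 36 lists 5 kept the sign of their median slope throughout: immediate early, macrophage, mast cell, oxidative stress, and haem and iron. Signal over background limits the dim probes, and the number of arteries limits the slopes that can be called. Even the slope of GPX4, 10.19 ± 1.31, did not pass over the 8 arteries.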
